A study of Mus musculus with 8 samples.

Results

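The genes described here are the FoxO transcription factors Foxo1, Foxo3 and Foxo4 and 7 genes known as their targets, Fbxo32, Sesn1, Sesn3, Irs2, Pik3ip1, Ccng2 and Cdkn1b. They were taken by symbol, and the 10 genes are 10 of 24639 gene entries in each count list. The set was chosen by the total RNA difference of Fbxo32, which stood among the lowest genes in cells lacking miR-379, so total RNA differences of the members are a description and carry no test. The question was whether other FoxO targets were lower as well, replicate by replicate, and what the AGO2 immunoprecipitation showed for the same genes.

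All libraries came from primary mouse glomerular mesangial cells (MMC) of C57BL/6J mice, cultured without treatment. WT MMC were from wild-type mice. miR-379KO MMC were from homozygous mice of a line with a small CRISPR-Cas9 deletion at miR-379, bred from a founder, and glomeruli were pooled before culture. Total RNA and RNA recovered with beads against AGO2 (AGO2-IP) were each sequenced from 2 samples per genotype, A and B, giving 8 samples in 4 groups. Because the labels do not tie A and B to separate animals, p-values measure only the spread between these samples, and with 2 against 2 an exact permutation test could not go below p = 0.333.

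FoxO factors are kept out of the nucleus when insulin or growth factor signalling activates AKT, and enter it when that signal is weak. They then switch on genes for protein breakdown, cell cycle exit, stress defence and insulin sensitivity. Fbxo32 encodes atrogin-1, the F-box subunit of a ubiquitin ligase that is best known for muscle wasting and is also made in other contractile cells. Mesangial cells are contractile, smooth muscle-like cells that support the capillaries of the glomerulus. AGO2 holds a microRNA and pairs its seed with target RNAs, so the AGO2-IP reads out RNAs that were bound to AGO2 or carried along with it.

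Of the 10 genes, Fbxo32 and Foxo1 had in the 3′-UTR a match to the seed of miR-379-5p, the microRNA removed in the miR-379KO line. The mature sequence, from RefSeq in GRCm38.p6 at chr12:109709065-109709085 on the plus strand, is shown with its seed, bases 2 to 8, in capitals. The 3′-UTR windows are shown with the matching letters, GTCTACC, in capitals, for the members that hold all 7 letters. Shorter seed matches, coding sequences and pairing outside the seed were not searched.
mmu-miR-379-5p: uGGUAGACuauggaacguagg
Fbxo32 3′-UTR: gccacacaatgGTCTACCtctaaaagcata
Foxo1 3′-UTR: ccctggcagtgGTCTACCtgctgaatgcca
The Fbxo32 match lies at chr15:58180921-58180927 on the minus strand, at base 539 of a 3′-UTR of 5587 bases. The Foxo1 match lies at chr3:52349165-52349171 on the plus strand, at base 2184 of 3128. Neither match is followed by an A. The same 7 letters were present in 773 of 19120 annotated 3′-UTRs (4.043%), searched on the sense strand, and in none of the other members' 3′-UTRs. A letter match is a description and does not show that the site is used.

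FoxO factors bind GTAAACA, and the related insulin response element holds CAAAACA. RefSeq promoters, 250 bases before to 50 bases after the annotated start, were at hand for 8 of the 10 members, all except Fbxo32 and Foxo4. Searched on both strands, GTAAACA was found in the Sesn1 promoter and CAAAACA in the Ccng2 and Irs2 promoters. They are shown because they are the members with a FoxO-type motif near the start. Capitals mark the motif, read on the gene's strand.
Sesn1 promoter: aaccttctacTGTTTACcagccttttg
Ccng2 promoter: gtcgcagactCAAAACAaaaacaaggg
Irs2 promoter: agtcacgtgtTGTTTTGctcttagttc
The motif in Sesn1 lies at chr10:41810596-41810602, that in Ccng2 at chr5:93267557-93267563 and that in Irs2 at chr8:11008960-11008966. In all, 3.65% of 32851 promoters held GTAAACA and 6.283% held CAAAACA. No match in the other members says only that these letters are not in this window.

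In total RNA, both miR-379KO samples had less Fbxo32 than both WT samples, and the log2 fold changes of the other members lay between −0.58 and −0.05. Fbxo32 was chosen by its total RNA difference, so nothing is read from its being the lowest member. The counts of Fbxo32 were 451 in WT A, 368 in WT B, 241 in miR-379KO A and 207 in miR-379KO B. As CPM, counts scaled to a common library size with TMM factors, these were 26.9 and 20.1 for WT compared to 10.5 and 12.2 for miR-379KO. The WT mean was 23.5 ± 4.78 CPM (SD, n = 2) and the miR-379KO mean 11.3 ± 1.19, a 2.08-fold lower level with a log2 fold change of −1.06 ± 0.26 (SE). The genotypes did not overlap. Ordered by fold change among 10763 genes that averaged 50 counts or more, Fbxo32 was number 38 from the lowest. No gene of 12321 tested passed an adjusted p of 0.05 in this comparison (edgeR quasi-likelihood test, 0% called), and 0 were called by DESeq2, while 91 genes (0.739%) had an unadjusted p under 0.05. At the looser cutoff of the study's methods, which asks for more than a 1.5-fold difference and an unadjusted p under 0.05, 84 genes (0.682%) were called, 0.349% lower and 0.333% higher.

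**Figure D1:**
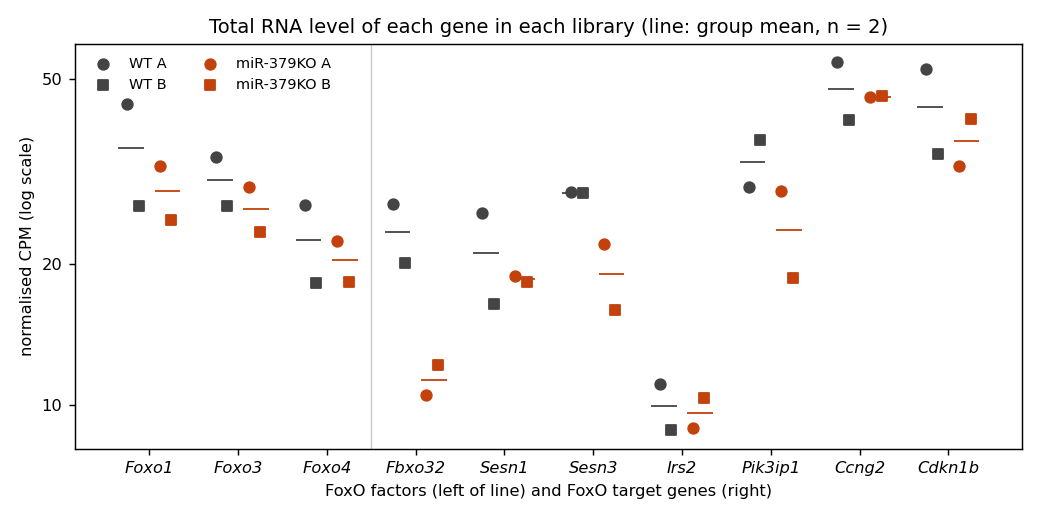
Normalised CPM in total RNA (y axis, log scale) for each of the 10 genes (x axis) in WT A and B (grey) and miR-379KO A and B (orange), with circles for A, squares for B and lines for the mean of 2. Fbxo32, Sesn3 and Pik3ip1 are the genes whose miR-379KO samples both lie below both WT samples.

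Sesn3, a stress-induced sestrin that restrains mTORC1, was the closest to Fbxo32 in its difference. Its levels were 28.6 and 28.5 CPM for WT A and B, compared to 22.2 and 16.0 CPM for miR-379KO A and B, a log2 fold change of −0.58 ± 0.25 (SE). Pik3ip1, an inhibitor of PI3-kinase, had 29.3 and 37.1 CPM in WT and 28.8 and 18.7 CPM in miR-379KO, a log2 fold change of −0.48 ± 0.29. The genotypes of both genes stood apart, but for Pik3ip1 the gap between WT A and miR-379KO A was under 1 CPM. Groups that did not overlap with miR-379KO lower were thus seen for 3 of the 10 genes, Fbxo32, Sesn3 and Pik3ip1, and for 9.07% of all genes tested. The comparison chose Fbxo32, so nothing further is read from that count.

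The remaining targets overlapped between genotypes. Cdkn1b encodes the cell cycle inhibitor p27 and had 52.5 and 34.6 CPM in WT and 32.5 and 41.0 CPM in miR-379KO, a log2 fold change of −0.25 ± 0.28. Sesn1, whose promoter holds GTAAACA, had 25.8 and 16.5 CPM in WT and 18.9 and 18.4 CPM in miR-379KO, a log2 fold change of −0.18 ± 0.28. The miR-379KO samples of both genes lay between WT A and WT B, except Cdkn1b in miR-379KO A, which was below WT B.

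Ccng2, a cyclin that slows the cell cycle, had 54.3 and 40.9 CPM in WT and 45.8 and 45.9 CPM in miR-379KO. Irs2, an adaptor of the insulin receptor, had 11.1 and 8.81 CPM in WT and 8.91 and 10.3 CPM in miR-379KO. Both had a log2 fold change of −0.05, with an SE of 0.23 for Ccng2 and 0.27 for Irs2. Both carry CAAAACA in the promoter window printed above, and in both the miR-379KO samples lay inside the range of the WT samples.

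The factors themselves also overlapped. Foxo1 had 44.3 and 26.8 CPM in WT and 32.6 and 24.9 CPM in miR-379KO, a log2 fold change of −0.30 ± 0.31. Foxo3 had 33.9 and 26.7 CPM in WT and 29.3 and 23.4 CPM in miR-379KO, and its log2 fold change was −0.20 ± 0.25. Foxo4 had 26.8 and 18.2 CPM in WT and 22.5 and 18.3 CPM in miR-379KO, with a log2 fold change of −0.14 ± 0.28. Foxo1 made up 39.7% ± 3.4 (SD, n = 2) of the counts of the 3 factors in WT and 38.0% ± 0.921 in miR-379KO, so the balance between factors was close in both genotypes. FoxO activity is set mainly by phosphorylation and location of the proteins, which were not measured.

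All 10 members had a log2 fold change below 0, as had 51.3% of all genes tested. The median of the 9 genes other than Fbxo32 was −0.20, compared to −0.01 over all genes tested. WT A was the highest of the 4 libraries for 9 of the 10 members. WT A also had the most of the ribosomal RNA precursor Rn45s, 9.26% of gene counts compared to 4.52% to 7.04% in the other total RNA libraries. Uniquely placed reads that matched no gene feature made up 8.81% in WT A, compared to 6.41% to 6.78%. The part of these measures in the members' levels was not tested. Without WT A the median of the 9 other genes was 0.11, and Fbxo32 was at −0.83. In that setting Sesn3 was at −0.57, Pik3ip1 at −0.63 and Foxo3 at −0.014, while the remaining members were at 0.09 to 0.18. Over all settings without single libraries, Sesn3 lay between −0.81 and −0.36 and Pik3ip1 between −0.80 and −0.20. Leaving out each library in turn gave −1.25 to −0.83 for Fbxo32 and −0.39 to 0.11 for the median of the others.

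Shares within the set do not depend on library scaling. Fbxo32 made up 11.8% of the counts of the 7 targets in WT A (Wilson interval at 95% confidence, 10.8 to 12.8) compared to 10.8% for WT B (9.81 to 11.9). In miR-379KO its share was 6.26% in A (5.53 to 7.07) and 7.48% in B (6.56 to 8.52). The intervals cover counting error only, and since the total RNA values of Fbxo32 chose the set, these shares are a description. Over the same targets the share of Ccng2 was 22.8% ± 1.29 (SD, n = 2) in WT and 27.8% ± 0.636 in miR-379KO, and that of Sesn3 was 13.9% ± 1.95 and 11.5% ± 2.41.

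Levels of different genes can be compared per kilobase of exon. On this scale, WT MMC had the most Ccng2, with 19.1 ± 3.80 CPM per kb (SD, n = 2), and Cdkn1b, with 18.1 ± 5.26, followed by Pik3ip1 with 14.8 ± 2.43 and Sesn3 with 13.2 ± 0.0366. Neighbours among these overlapped in WT. A gap followed, then Foxo4 with 7.13 ± 1.93 CPM per kb, Foxo1 with 6.40 ± 2.23, Sesn1 with 6.33 ± 1.98 and Foxo3 with 4.47 ± 0.753, again with overlap between neighbours. Fbxo32, at 3.39 ± 0.689 CPM per kb, lay below the lowest Foxo3 sample, and Irs2 was lowest with 1.47 ± 0.238. Fbxo32 was therefore a gene of modest level in WT MMC, above 29.4% of the genes tested. In miR-379KO its level was 1.63 ± 0.171 CPM per kb, next to that of Irs2 with 1.42 ± 0.148.

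**Figure D2:**
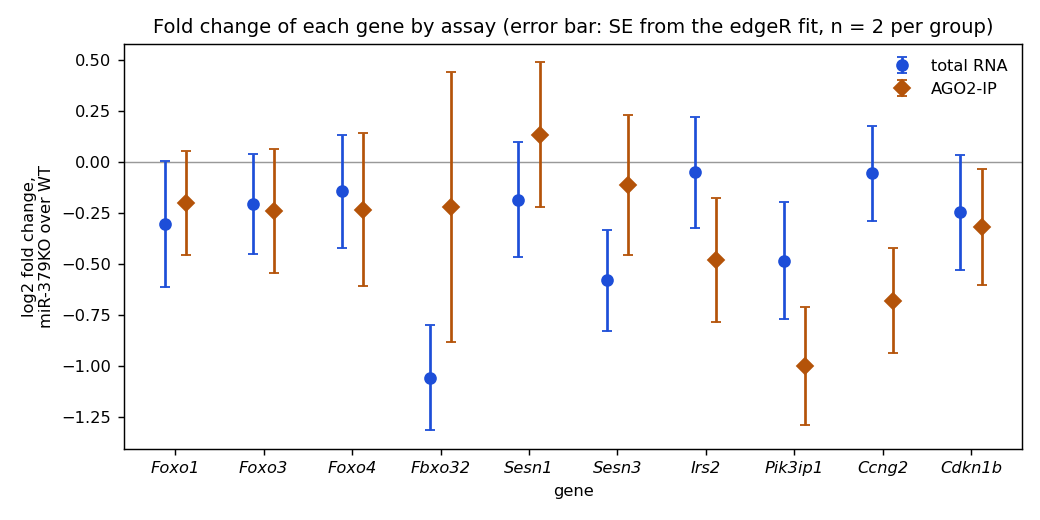
Log2 fold change of miR-379KO over WT (y axis) for each of the 10 genes (x axis) in total RNA (blue circles) and AGO2-IP (brown diamonds), with error bars of 1 SE from the edgeR fit. Fbxo32 is the lowest point in total RNA at −1.06 and has the widest error in AGO2-IP, while Pik3ip1 and Ccng2 are the lowest points in AGO2-IP at −0.997 and −0.68.

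A wider list of 32 genes described as FoxO targets was examined in the same way, of which 25 had enough counts in total RNA. None passed an adjusted p of 0.05 in edgeR or DESeq2, and 1, Klf2, had an unadjusted p under 0.05 and was called at the study's cutoff, compared to 0.682% of all genes. Klf2, a transcription factor that FoxO1 induces in lymphocytes, was higher and not lower, with 12.2 and 18.5 CPM in WT and 31.6 and 34.2 CPM in miR-379KO. Its log2 fold change was 1.10 ± 0.27 (edgeR unadjusted p = 0.0064, adjusted p = 0.9997). The median of the 25 genes was −0.09, with 15 below and 10 above 0, and groups stood apart for 5 genes in each direction (9.07% of all genes lower and 9.89% higher).

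Among wider targets whose groups stood apart, those with the largest differences were spread over several functions. Bcl2l11, which encodes the pro-apoptotic protein BIM, had a log2 fold change of −0.56 ± 0.30 (edgeR adjusted p = 0.9997), and Txnip, a thioredoxin inhibitor, one of −0.50 ± 0.22 (adjusted p = 0.9997). Cited2, a coregulator, was at 0.43 ± 0.22 (adjusted p = 0.9997). None of the 25 had a difference as low as that of Fbxo32. Since the Fbxo32 value chose the set, nothing is read from this order. Trim63, which encodes MuRF1, the ubiquitin ligase usually named together with atrogin-1, had 0 counts throughout total RNA, and a count of 0 allows up to 3 per library. Trim63 was singled out after its values were seen.

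**Figure D3:**
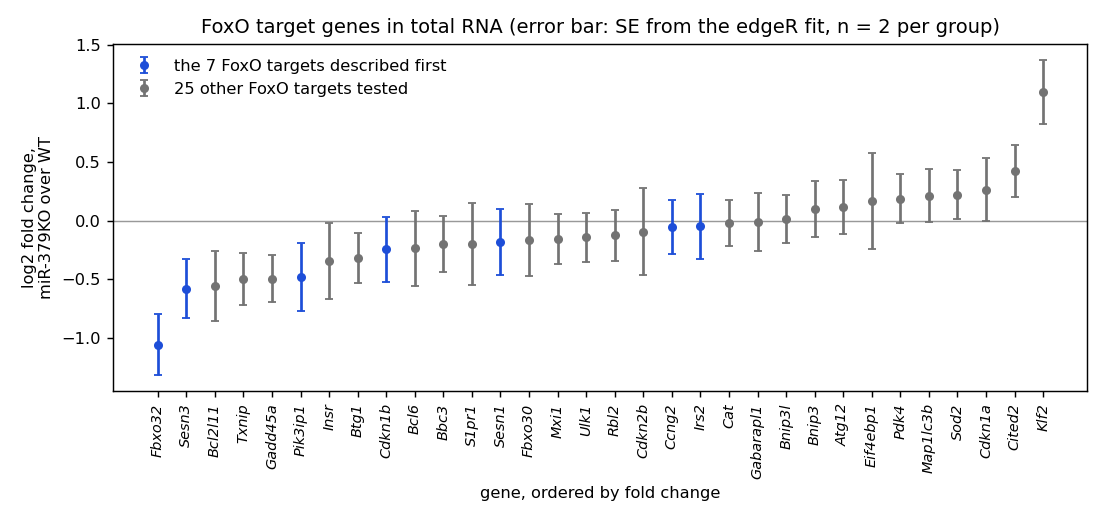
Log2 fold change of miR-379KO over WT in total RNA (y axis, error bars of 1 SE from the edgeR fit) for the 7 FoxO targets described first (blue) and 25 further FoxO targets (grey), in order of fold change. Fbxo32 at −1.06 and Klf2 at 1.10 are the ends of the order, and all other genes lie between −0.58 and 0.43.

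Upstream of FoxO, 33 genes of the PI3K-AKT pathway, 14-3-3 proteins and FoxO modifiers were measured in total RNA. None passed the adjusted p in edgeR or DESeq2, and 1 had an unadjusted p under 0.05 and was called at the study's cutoff. This was Sgk1, a kinase that phosphorylates FoxO3 and keeps it from the nucleus, with 227 and 144 CPM in WT and 302 and 357 CPM in miR-379KO. Its log2 fold change was 0.83 ± 0.29 (edgeR unadjusted p = 0.0284, adjusted p = 0.9997). The list's median was −0.01. Of those whose groups stood apart, Prkaa2, a catalytic subunit of AMPK, was at −0.54 ± 0.29, the acetyltransferase gene Ep300 at −0.41 ± 0.25 and the 14-3-3 gene Ywhah at 0.24 ± 0.22, none past the threshold. Ep300 had 116 and 78.5 CPM in WT A and B and 72.1 and 73.7 CPM in miR-379KO, so WT B lay close to miR-379KO.

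Other genes tied to Fbxo32 were examined as well. Of 8 measured genes for ligase partners, related F-box proteins and substrates, 0 were called in total RNA by edgeR or DESeq2, 0 had an unadjusted p under 0.05 and the median log2 fold change was 0.05. Fbxo31 was at 0.19 ± 0.22 and Skp1a, the adaptor that joins F-box proteins to the ligase, at 0.11 ± 0.20. Glucocorticoids also induce Fbxo32, and of 7 measured glucocorticoid targets 0 were called by edgeR or DESeq2 and 0 had an unadjusted p under 0.05, with Ddit4 at −0.44 ± 0.21 and Per1 at 0.21 ± 0.21.

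Contractile genes of the cells lay on both sides of 0. Of 10 measured, none passed the adjusted p in edgeR or DESeq2, and 1, Actg2, the enteric smooth muscle actin, was called at the study's cutoff. It had 701 and 578 CPM in WT and 144 and 317 CPM in miR-379KO, a log2 fold change of −1.47 ± 0.41 (unadjusted p = 0.0106, adjusted p = 0.9997). Acta2 was at 0.42 ± 0.31 and Tagln at 0.50 ± 0.30, and the summed level of the 10 was 12712 to 17076 CPM in WT compared to 18130 to 19328 CPM in miR-379KO. Their part in the Fbxo32 difference was not tested.

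The genes whose levels over the 4 total RNA libraries were most like that of Fbxo32, among 10762 others and by Euclidean distance of gene-centred log2 CPM, were Bach2, C130074G19Rik, Mex3b, Socs3 and Kif26b, with distances of 0.271 to 0.352. Bach2, a transcriptional repressor, had 12.1 and 10.5 CPM in WT and 5.96 and 6.70 CPM in miR-379KO. Socs3, a feedback inhibitor of cytokine signalling, had 26.3 and 21.5 CPM in WT and 13.1 and 16.3 CPM in miR-379KO. No member of the FoxO set was among these 5 genes. With 4 libraries this likeness is a description.

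AGO2-IP libraries were far thinner over these genes. Total RNA libraries held 17168230 to 22660743 gene counts, and AGO2-IP libraries 5587611 to 17095021, of which 72.2% to 80.5% were the ribosomal RNA precursor Rn45s. The share of uniquely placed reads that matched no gene feature on the counted strand was 46.6% and 49.7% in WT AGO2-IP. It was 73.4% and 76.4% in miR-379KO AGO2-IP. As a measure of background, 5196 protein-coding genes with no count in any total RNA library gave 1.35 and 0.913 counts per kb of exon for WT A and B, compared to 3.08 and 3.52 for the miR-379KO libraries. Genotype and background cannot be told apart in these libraries.

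In AGO2-IP, Fbxo32 did not pass the test. Its counts were 39 in WT A, 127 in WT B, 67 in miR-379KO A and 61 in miR-379KO B, or 3.82 and 14.7 CPM compared to 7.86 and 7.79 CPM. Both miR-379KO values thus lay between the WT values, and WT B was over 3 times WT A. The log2 fold change was −0.22 ± 0.66 (edgeR adjusted p = 0.838), with a 95% interval of −1.51 to 1.08 that includes the total RNA value. Without WT B it was 0.99 (adjusted p = 0.0314), and without WT A −0.97 (adjusted p = 0.0082). These calls turn on single WT libraries and on opposite sides. Of the counts of the 7 targets, Fbxo32 took 9.70% and 33.0% for WT A and B, compared to 23.3% and 27.0% for miR-379KO. WT B also stood apart in Des, the muscle intermediate filament desmin, with 107 and 790 CPM in total RNA of WT A and B and 13.3 and 87.4 CPM in their AGO2-IP. Des was singled out after its values were seen, and its part in the Fbxo32 values was not tested.

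Foxo1, the other member with the GTCTACC match, had 70 and 67 counts in WT compared to 58 and 46 in miR-379KO AGO2-IP. In CPM this was 6.86 and 7.75 compared to 6.80 and 5.88. The groups stood apart by less than 0.1 CPM, and the log2 fold change was −0.20 ± 0.25 (edgeR adjusted p = 0.578, 95% interval −0.70 to 0.30). Gene counts cover the whole RNA and do not measure the matching sites themselves.

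Pik3ip1 and Ccng2 were lower in miR-379KO AGO2-IP, 2 of the 10 members, where 30.9% of the 13505 genes tested were called and 9.52% were called lower. At the study's cutoff these were again the 2 members called, both lower, where 13.3% of all genes were called lower. Pik3ip1 had 67 and 53 counts in WT compared to 29 and 23 in miR-379KO, a log2 fold change of −0.997 ± 0.29 (edgeR adjusted p = 0.012). Ccng2 had 122 and 70 counts in WT compared to 55 and 48 in miR-379KO, a log2 fold change of −0.68 ± 0.26 (adjusted p = 0.0474). Neither holds the seed match in its 3′-UTR. Both calls were lost in DESeq2, with an adjusted p of 0.141 for Pik3ip1 and 0.251 for Ccng2, and without miR-379KO B, with 0.135 and 0.226. With all 8 libraries in 1 fit they were at 0.0569 and 0.0684. The Ccng2 call was also lost without WT A (adjusted p = 0.309), without miR-379KO A (0.0889), with the replicate letter as a block (0.0544), with TMM factors taken over genes detected in total RNA (0.154) and among genes averaging 50 counts or more (0.535).

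**Figure D4:**
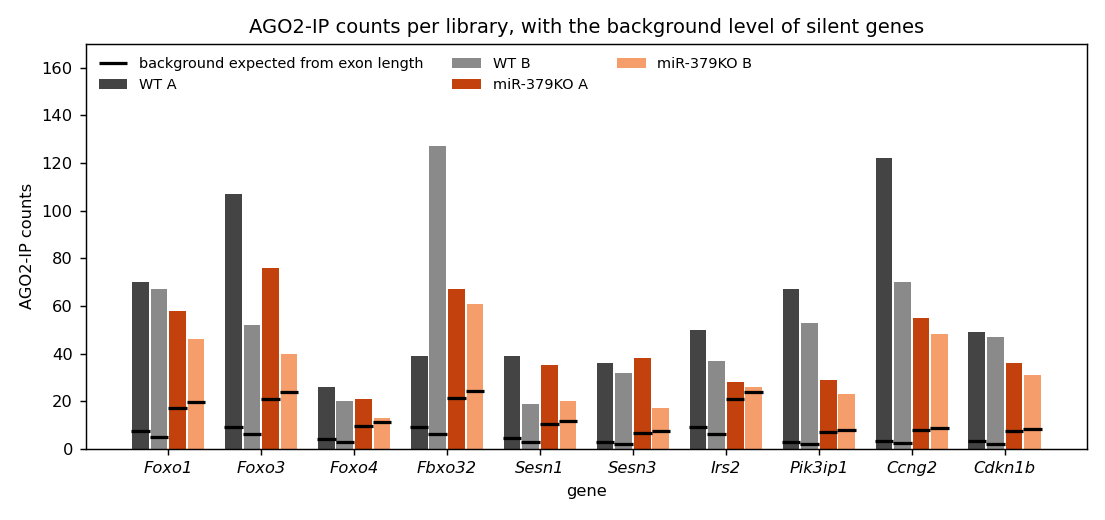
AGO2-IP counts (y axis) of each of the 10 genes (x axis) in the 4 libraries (bars), with a black line for the counts expected from the gene's exon length at the density of genes silent in total RNA. The lines are higher in both miR-379KO libraries, and for Irs2 and Foxo4 they reach most of the bar of miR-379KO B (92.0% and 85.6%).

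The other members did not pass the test in AGO2-IP. Irs2 had 50 and 37 counts in WT compared to 28 and 26 in miR-379KO, a log2 fold change of −0.48 ± 0.30 (edgeR adjusted p = 0.235). Cdkn1b was at −0.32 ± 0.29, Foxo3 at −0.24 ± 0.30, Foxo4 at −0.23 ± 0.38, Sesn3 at −0.11 ± 0.34 and Sesn1 at 0.14 ± 0.36. Groups stood apart with miR-379KO lower for 5 of the 10 members, Foxo1, Irs2, Pik3ip1, Ccng2 and Cdkn1b, and for 32.2% of all genes tested, and none stood apart with miR-379KO higher, as 36.1% of all genes did. The median of the 10 was −0.23, compared to −0.01 over all genes tested. In AGO2-IP 9 of the 10 members had a log2 fold change below 0, all except Sesn1, as had 50.6% of all genes. This lean was not particular to the members. Below 0 were also 16 of 27 further FoxO targets, 27 of 33 FoxO regulators and 6 of 8 ligase genes. The same held for 6 of 6 glucocorticoid targets and 8 of 10 contractile genes, with medians of −0.56 and −0.84. Of the endothelial, tubular and leukocyte markers tested, 0 were below 0. Whether the AGO2-IP differences depart from the total RNA differences was not tested.

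The background took different shares of these counts. At the density of silent genes it came to 18.3% and 16.8% of the Irs2 counts for WT A and B, compared to 74.8% and 92.0% for miR-379KO. For Fbxo32, whose exons are long, it came to 24.0% and 4.99% for WT, compared to 31.9% and 40.0% for miR-379KO. For Ccng2 it stayed at 2.76% to 18.3% over the 4 libraries. With this background subtracted, the log2 difference of the mean CPM was −0.75 for Fbxo32, −1.43 for Pik3ip1, −0.88 for Ccng2 and −2.79 for Irs2, and the median of the 10 was −0.78. These are values with no test. They were scaled by the library factors from before subtraction, and more background per kb was removed from miR-379KO. The subtraction thus lowers the miR-379KO values by more than the WT values, and no median over all genes was computed for it.

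The wider lists were called in both directions in AGO2-IP. Of 27 further FoxO targets tested, 4 fell and 2 rose (edgeR, adjusted p under 0.05), beside 9.52% and 21.4% of all genes. Cdkn1a, which encodes the cell cycle inhibitor p21, fell with a log2 fold change of −0.67 ± 0.23 (adjusted p = 0.0321), and Txnip with −0.61 ± 0.23 (adjusted p = 0.0466). Eif4ebp1, a brake on translation, was at −0.63 ± 0.24 (adjusted p = 0.0498). Gadd45a, the fourth, had a mean under 50 counts. The 2 that rose, Ppargc1a and Tnfsf10, had at most 35 counts in any AGO2-IP library, and all 3 genes are named here after their values were seen. DESeq2 called 1 of the 27, and 838 genes in all.

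Of 33 FoxO regulators in AGO2-IP, 3 fell and 2 rose, beside 9.52% and 21.4% of all genes. Igf1r, the IGF-1 receptor gene, fell with 1155 and 1059 counts in WT compared to 665 and 474 in miR-379KO, a log2 fold change of −0.77 ± 0.26 (edgeR adjusted p = 0.031). The acetyltransferase genes Crebbp and Ep300 were at −0.71 ± 0.23 (adjusted p = 0.0239) and −0.65 ± 0.23 (adjusted p = 0.0371). Those that rose, named after their values were seen, were Sgk3 at 1.29 ± 0.33 (adjusted p = 0.00557) and Prkaa2 at 0.95 ± 0.30 (adjusted p = 0.0199). DESeq2 called 1 of the 33, and 838 genes in all.

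Of the 8 genes tested in the ligase list, 0 were called in AGO2-IP by edgeR or DESeq2 and 0 had an unadjusted p under 0.05, with Nedd4 at −0.41 ± 0.30 (edgeR adjusted p = 0.2999) and Eif3f, a substrate of atrogin-1, at −0.38 ± 0.22 (adjusted p = 0.196). Of 6 glucocorticoid targets, Dusp1 and Ddit4 fell, with −0.95 ± 0.26 and −0.83 ± 0.31 (edgeR adjusted p = 0.00899 and 0.0472), beside 9.52% of all genes. Of 10 contractile genes 5 fell, beside the same 9.52% of all genes. The most was Actg2, which had 590 and 638 counts in WT compared to 68 and 43 in miR-379KO. Its log2 fold change was −3.28 ± 0.28 (adjusted p = 2.31e-07). Cnn1 was at −1.58 ± 0.34 (adjusted p = 0.00507) and Smtn at −1.22 ± 0.27 (adjusted p = 0.00249). DESeq2 called 0 of the glucocorticoid targets and 4 of the contractile genes, and 838 genes in all.

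AGO2-IP was also compared with total RNA in WT MMC, as a log2 ratio. Library protocol changes together with the assay, poly(A)-selected for total RNA and adapter-ligated for AGO2-IP. Recovery with AGO2 and protocol therefore cannot be told apart in these ratios. Irs2 was the only member called, with more in AGO2-IP, at an adjusted p of 0.05 and a 2-fold difference, where 43.1% of 17429 genes were called, 35.7% higher and 7.33% lower. Its log2 ratio was 1.38 ± 0.30 (edgeR adjusted p = 0.00103), and the median ratio over all genes was 0.49. Fbxo32 had a log2 ratio of 1.15 ± 0.48 (adjusted p = 0.0702), which was −0.44 without WT AGO2-IP B and 1.59 without WT AGO2-IP A (adjusted p = 0.0021). With exon length and GC content corrected by an offset it was 0.10 (adjusted p = 0.883).

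The ratios of the other members ranged from −0.70 for Foxo4 to 0.63 for Foxo3, with the targets Pik3ip1 and Ccng2 at 0.09 and 0.26. With the same offset, 5 members were called lower in AGO2-IP, Foxo4, Sesn1, Sesn3, Ccng2 and Cdkn1b, at −1.08 to −1.77, and Irs2 was at 0.78 and no longer 2-fold. In that setting 5266 of the 17429 genes tested were called lower and 4844 higher, and the median ratio over all genes was −0.37. Among wider lists, Insr (1.38 ± 0.26), Bcl2l11 (1.01 ± 0.27) and Crebbp (2.02 ± 0.26) had higher ratios. Those of Map1lc3b (−1.57 ± 0.30), Gabarapl1 (−1.55 ± 0.36), Skp1a (−1.77 ± 0.28) and Ywhaq (−1.69 ± 0.29) were lower.

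The labelled cell type was checked by markers in total RNA. Summed levels of 8 mesangial markers were 13117 to 13738 CPM in WT and 14492 to 15566 CPM in miR-379KO. Acta2 alone gave 6886 and 9090 CPM in WT A and B and 10606 and 10696 CPM in miR-379KO A and B. Acta2 and Des belong to both the mesangial and the contractile list, so the sums of these lists are not separate. Those of 5 podocyte markers were 240 to 628 CPM in WT and 329 to 570 CPM in miR-379KO. Of the mesangial list, Thy1, Pdgfra and Itga8 were at or under 2.27 CPM in each library. Endothelial, tubular and leukocyte markers summed to at most 2.09, 26.7 and 5.09 CPM in any total RNA library. In AGO2-IP their sums were higher in miR-379KO, with 2.31 to 4.12 CPM in WT compared to 6.69 to 8.18 CPM in miR-379KO for endothelial, 5.59 to 6.94 compared to 16.1 to 21.3 CPM for tubular and 3.58 to 3.63 compared to 8.56 to 12.4 CPM for leukocyte markers. The sums of mesangial and contractile genes were lower in miR-379KO AGO2-IP, with 2637 to 2778 CPM in WT compared to 1130 to 1704 CPM in miR-379KO for mesangial and 1019 to 1309 compared to 465 to 782 CPM for contractile genes, while those of podocyte markers overlapped, with 24.3 to 70.3 and 29.6 to 56.8 CPM. In bulk RNA, fewer cells of a type and less RNA per cell cannot be told apart, and the part of these markers in the Fbxo32, Pik3ip1 and Ccng2 differences was not tested. The miR-379 precursor entry had 0 counts in each total RNA library and 0, 4, 1 and 0 counts in AGO2-IP of WT A, WT B, miR-379KO A and miR-379KO B, too few to check the deletion.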

How the data were processed

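The values used were gene counts deposited by the authors, as whole reads without normalization, 1 list for each of 8 libraries. Reads had been placed on mm10 by TopHat and assigned to RefSeq genes by htseq-count with the reverse strand setting (HTSeq 0.6.0 and Bowtie2 2.1.0.1 in the submitters' processing notes). Total RNA libraries were stranded and poly(A)-selected. AGO2-IP libraries were made by adapter ligation from UV cross-linked lysates. Reads assigned to no gene were left out.

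Groups were compared in edgeR 4.0.16 (R 4.3.3) with TMM factors, filterByExpr (minimum count 10), and the robust quasi-likelihood test, with Benjamini-Hochberg adjustment over all genes tested. CPM are scaled by TMM factors within an assay. Fits used the 4 libraries of an assay, or all 8 for AGO2-IP against total RNA. DESeq2 1.42.0 was an alternative. The fits were tested on simulated data. Shares have Wilson 95% intervals, which cover counting error only.

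Sequences, exon lengths and coordinates (1-based) came from RefSeq, GRCm38.p6, and 98.7% of entries matched by symbol or synonym. The members and lists were chosen with earlier results of these data known. Genes named from a wider list were, in each comparison, up to 3 called per direction, or where none was called up to 2 per direction, with the largest fold change among those that averaged 50 counts or more and had groups that do not overlap. Exceptions are given as named after their values were seen. A further gene of the marker lists is not reported here.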

Additional observations from a re-analysis of the deposited data

How the results depend on the processing

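In total RNA, the Fbxo32 log2 fold change stayed between −1.06 and −0.87 under every other setting and between −1.25 and −0.83 without single libraries, and the median of the 9 other genes between −0.22 and −0.12, and between −0.39 and 0.11 without single libraries. The number of genes at the study's cutoff, 84, was 269 with all 8 libraries in 1 fit, 134 with no filter on low counts and 55 to 1278 without single libraries, a setting in which the lone sample is assumed to vary like the other group. Within an assay, deviations of WT and miR-379KO samples with the same letter were little correlated. The correlation of same-letter deviations was −0.11 over 10763 genes in total RNA and 0.04 over 4971 in AGO2-IP. With 2 samples per group, these values cannot show whether same-letter samples were handled together. Whether a letter ties a total RNA sample to an AGO2-IP sample was not tested. The replicate block gave 1 member called in AGO2-IP, Pik3ip1, in place of 2. With the crossed block in total RNA, added after seeing the data, 1 gene was called and 168 were at the study's cutoff.

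In AGO2-IP, 4173 genes were called, compared to 686 with all 8 libraries in 1 fit, 838 with DESeq2, 274 among genes averaging 50 counts or more and 918 to 3337 without single libraries. Of called genes 69.2% were higher, 53.7% with the offset for GC content and exon length, 85.4% among genes averaging 50 counts or more, 86.2% with TMM factors taken over genes detected in total RNA and 54.1% with no filter, where the median over all genes was 0.36 in place of −0.01. The members called numbered 0 with all 8 libraries, DESeq2 or the mean of 50, 1 with TMM factors taken over genes detected in total RNA and 0 to 3 without single libraries. The members' median was −0.78 after background subtraction, 0.14 with the mean of 50, −0.44 with no filter, −0.060 with those TMM factors and −0.58 to −0.17 without single libraries. For the subtraction no median over all genes was computed. With the mean of 50, only Fbxo32, Foxo1, Foxo3 and Ccng2 were tested, at 0.17, 0.17, 0.12 and −0.31. The median and the number of members called with this filter cover these genes alone. Pik3ip1 was not tested there. With TMM factors taken over genes detected in total RNA Sesn3 was at 0.065. Sesn1 was at −0.0038 with all 8 libraries, −0.067 with no filter, −0.18 with the offset and −0.16 with the block and offset. Without single libraries the ranges were −0.97 to 0.99 for Fbxo32, −0.77 to 0.17 for Foxo3, −0.32 to 0.54 for Sesn1 and −0.80 to 0.29 for Sesn3.

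In WT AGO2-IP against total RNA, 7507 genes were called and 1829 with the mean of 50. The share of higher calls was 83.0%, compared to 53.1% with the mean of 50 and 47.9% with the offset. With the offset, and with the block and offset, Ccng2 was at −1.08 and −1.09, Foxo1 at −0.44 and −0.42, Foxo3 at −0.016 and −0.042 and Pik3ip1 at −0.59 and −0.59, and Fbxo32 was at −0.021 with the block and offset. Without single libraries the ranges were −0.29 to 0.32 for Ccng2, −0.44 to 1.59 for Fbxo32, −0.19 to 0.47 for Foxo1, −0.066 to 0.66 for Foxo3 and −0.20 to 0.36 for Pik3ip1. The cause of these changes was not tested. Precision was limited by 2 samples per group and by at most 127 AGO2-IP counts per member and library.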
